A study of Drosophila melanogaster with 22 samples.

Results

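CG18557, CG3117, CG4793, CG40160, CG43336, CG33462 and CG11313 are 7 Drosophila genes that are named as trypsin-like serine proteases or as their homologues. They were picked from the genes that moved furthest between groups on these same arrays, so their differences between groups are given here as a description, with no test. They are 7 of the 7222 genes that could be tested, and 9 of the 18952 probe sets on the array carried 1 of their symbols. Of these 9 probe sets, 7 passed the filter on low signal, 1 for each gene, and the other 2, both of CG4793, did not. A gene that is silent in control cells can pass such a filter only through the groups in which it is high.

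The arrays measured messenger RNA in S2 cells, a cultured line from fly embryos with properties of blood cells (hemocytes), kept in HyQ CCM3 medium at 27 degrees. Cells received double-stranded RNA (dsRNA) at 30 µg/ml on days 0, 1 and 3 and were lysed on day 5. The control dsRNA was against GFP (2 arrays), which flies lack. The depletions were labelled by dsRNA target: the exosome cap subunits Csl4 (2 arrays), Rrp4 (4) and Rrp40 (2), the ring subunits Mtr3, Rrp46 and Ski6 (2 each), the exonucleases Dis3 and Rrp6 (2 each), and Rrp47 (2), the partner of Rrp6. The study asked which messenger RNAs the subunits of the exosome act on. In their titles the depletion arrays are biological replicates and the GFP arrays numbered controls. The labels do not say that replicates came from separate cultures, so errors and p-values measure the spread between these arrays, which may be technical.

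Trypsin-like serine proteases cut proteins with a catalytic histidine, aspartate and serine, and are made as inactive precursors. In flies they form a large family. One branch digests food in the gut, and another, whose members carry an extra clip domain, works in chains in the blood, where they switch on the Toll pathway and the melanization of wounds and microbes. Homologues (SPH) keep the fold but have lost the catalytic activity, and some act as cofactors of active proteases. The exosome is a complex of RNA-degrading and scaffold proteins that works on RNA from the 3′ end. By their synonyms in the RefSeq annotation, CG18557 (cSPH125), CG3117 (cSPH94), CG4793 (cSPH128) and CG40160 (cSPH242) are clip-domain homologues, CG11313 (cSP11) is a clip-domain protease, and CG43336 (SPH73, also SP73b) and CG33462 (SP41, also SP240) carry names without the clip prefix. None of the 7 is given a more specific role here.

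Several facts of the whole series bear on these genes. The targeted gene was lower than in GFP in its own arrays for Dis3 (log2 difference -1.17 ± 0.32, SE) and Rrp6 (-0.91 ± 0.27), higher for Csl4, Ski6, Rrp40 and Rrp47, and not past the test for Mtr3, Rrp46 and Rrp4, so groups are called by their labels. The Rrp4 arrays stood apart in the added poly-A transcripts, which lay -4.87 to -2.44 from the hybridization controls on the log2 scale, against 0.66 to 2.24 on the other 18 arrays. They were also deposited at another scale, with a trimmed mean of 500.01 to 500.02 in intensity against 126 to 346 on the other 18, and the place of Rrp4 among the depletions depends on the scaling. With values as deposited, Rrp4 lay above Dis3 for CG18557 (4.48 against 3.47 above GFP on the log2 scale), above Rrp40, Dis3 and Rrp46 for CG33462 (5.28 against 4.91, 4.89 and 5.17), and above GFP for CG40160 (by 0.87). Rrp4 then also lay above Rrp40 and Dis3 for CG3117 (3.89 against 3.78 and 2.42) and above Dis3 for CG43336 (4.62 against 2.96). For CG11313 it was the highest depletion (3.75). The first 2 arrays of a group differed by a median of 0.43 on the log2 scale for Rrp6, 0.41 for Dis3, 0.34 for Csl4, 0.30 for GFP and 0.12 to 0.23 for the rest. The standard errors below share 1 estimate of spread over all groups and can be too small for these noisier groups, GFP among them.

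Levels are log2 signals after quantile normalization, which gives all arrays the same distribution. A floor was set at 1.69, and a value there is a bound. CG18557 stood at 6.04 and 5.29 on the GFP arrays. It reached 12.03 and 12.04 in Mtr3, 11.89 and 11.89 in Ski6, 11.62 and 11.85 in Csl4, 11.58 and 11.61 in Rrp47, 11.29 and 11.44 in Rrp46 and 11.26 and 11.23 in Rrp40. In Dis3 it was at 9.10 and 9.42, in Rrp4 at 8.29 to 8.61 over 4 arrays, and in Rrp6 at 7.59 and 8.71. All 20 depletion arrays thus lay above both GFP arrays, 6 groups formed a high tier, and Dis3, Rrp4 and Rrp6 formed a middle tier in which Rrp4 and Rrp6 overlapped. A single member, CG18557, had every depletion array above both GFP arrays, which held for 2.79% of all tested probe sets. The mean of the 9 depletions exceeded GFP by 4.98 ± 0.20 on the log2 scale, or 31.5-fold, the largest difference of the 7 and rank 3 of the 9385 tested probe sets.

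CG3117, the clip-domain homologue next to CG18557 on the chromosome, was close to absent in control cells. It stood at 2.70 on the first GFP array and at the floor on the second. Its values were 7.82 and 7.87 in Mtr3, 7.66 and 7.24 in Ski6, 6.74 and 6.35 in Csl4, 6.43 and 6.60 in Rrp47, 6.42 and 6.55 in Rrp46 and 6.00 and 6.42 in Rrp40. Mtr3 and Ski6 were again on top and did not overlap with any other group. CG3117 was lower in Dis3, at 5.02 and 5.26, and in Rrp4, at 4.72 to 5.01. In Rrp6 it stood at 2.76 and at the floor, which overlapped with GFP. The mean difference from GFP over the 9 depletions was 3.72 ± 0.28 (13.2-fold), and it depended on the floor, at 2.93 with a floor at the 25th percentile of all values.

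CG4793 was also highest in Mtr3 and Ski6. Its GFP arrays disagreed, at 5.27 and 2.68. Mtr3 stood at 9.99 and 10.54, Ski6 at 9.57 and 10.05, Csl4 at 9.39 and 9.52, Rrp47 at 9.13 and 9.15, Rrp46 at 8.61 and 8.40 and Rrp40 at 8.06 and 8.31. These 12 arrays all lay well above both GFP arrays. Rrp4 stood at 6.31 to 6.62 and Dis3 at 5.72 and 6.11, still above GFP, whereas the Rrp6 arrays, at 2.68 and 5.88, spanned the GFP arrays and overlapped with Dis3. The mean difference from GFP was 4.03 ± 0.55 (16.3-fold). It was 5.33 without the first GFP array and 2.73 without the second, so the size rested on which control was used. The other 2 probe sets of CG4793 were dim, with mean levels of 3.73 and 2.14 over the 22 arrays and with 2 and 13 arrays at the floor, and the mean of all 3 probe sets gave a difference of 1.92.

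CG40160 lay above GFP in some depletions and below it in others. GFP stood at 5.67 and 5.18. It was at 8.27 and 8.06 in Ski6, 8.03 and 7.90 in Mtr3, 7.52 and 7.02 in Csl4, 7.36 and 7.21 in Rrp47 and 5.89 and 6.50 in Rrp46. All of these lay above both GFP arrays. Dis3, at 3.01 and 2.66, and Rrp6, at 4.98 and 2.60, lay below both, and Rrp4 at 4.29 to 5.39 and Rrp40 at 4.20 and 6.33 overlapped with GFP. In all, 11 of the 20 depletion arrays were above both GFP arrays and 8 below. Arrays of 1 depletion all above and of another all below both GFP arrays were seen in 33.7% of all tested probe sets. The mean over the 9 depletions was 0.52 ± 0.48 above GFP (1.44-fold), about 1 standard error, and the word induced therefore describes this gene only in some of the groups. A probe set of the kind used for CG40160 (suffix _s_at) can by its design match more than 1 transcript.

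CG43336 had its highest levels in other groups. GFP stood at 1.92 and 4.52. Rrp40 reached 9.14 and 9.17, Rrp46 8.78 and 8.78, Csl4 7.55 and 9.06 and Rrp47 7.85 and 8.14. Mtr3 and Ski6, the top groups of the clip-domain homologues, were lower here, at 7.56 and 6.58 and at 6.23 and 6.52, and overlapped in order with Dis3 (6.11 and 7.19) and Rrp4 (6.23 to 6.73). The Rrp6 arrays, at 4.32 and at the floor, lay in or below the GFP range. The mean difference from GFP was 3.86 ± 0.56 (14.6-fold), at 2.57 without the first GFP array and 5.16 without the second. In RefSeq, CG43336 shares an older gene number with its relative CG43335, and signal of the 2 cannot be told apart here.

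CG33462 was nearly flat among the depletions in which it was high. Its GFP arrays agreed closely, at 5.09 and 5.45. It stood at 10.60 and 10.95 in Mtr3, 10.60 and 10.64 in Csl4, 10.77 and 10.37 in Rrp47, 10.51 and 10.24 in Dis3, 10.34 and 10.34 in Rrp46, 10.02 and 10.43 in Ski6 and 10.14 and 10.22 in Rrp40. From Mtr3 down to Rrp40, each of these groups overlapped with the next, so that Dis3 lay among the ring and cap groups other than Rrp4. Rrp4 was lower after quantile normalization, at 8.79 to 9.22, and Rrp6, at 6.23 and 4.36, overlapped with GFP. The mean difference from GFP was 4.44 ± 0.28 (21.7-fold). CG33462 shares older gene numbers with its neighbours CG33460 and CG33461 in RefSeq, and their signals cannot be told apart here.

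CG11313, the 1 gene named as a clip-domain protease and not as a homologue, had the smallest range among the depletion means and a different order of groups. GFP stood at 1.92 and 4.73. Rrp6 held the highest mean, at 6.42 and 5.71, next to Ski6 at 6.21 and 5.91, Rrp4 at 5.21 to 6.14, Dis3 at 5.99 and 5.25, Rrp40 at 5.98 and 5.15, Mtr3 at 5.09 and 5.97, Csl4 at 5.78 and 5.16 and Rrp46 at 5.21 and 5.49. These 8 groups overlapped in sequence and all their arrays were above both GFP arrays. The top place of Rrp6 depended on the scaling. With values as deposited, Rrp4 (3.75 above GFP), Ski6 (3.62) and Mtr3 (2.97) lay above Rrp6 (2.39). With median centring Ski6 (2.78) lay above Rrp6 (2.51). The low group was Rrp47, at 2.91 and 2.34, within the GFP range. The mean difference from GFP was 2.01 ± 0.49 (4.02-fold), but 0.60 without the first GFP array and 3.41 without the second.

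**Figure D1:**
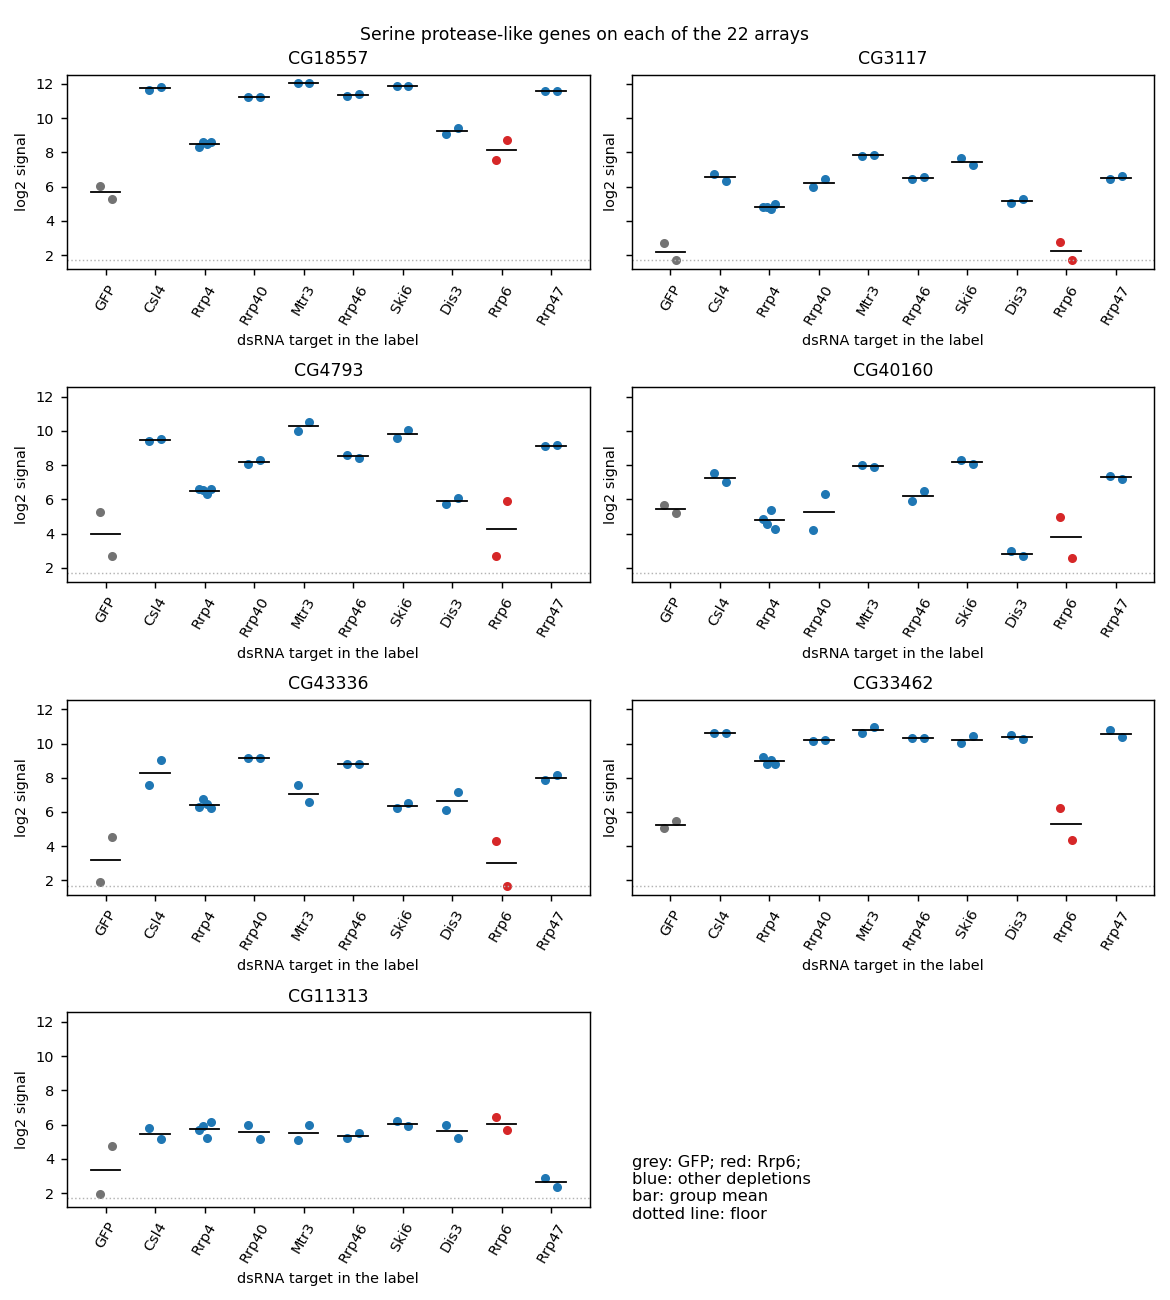
Log2 signal (vertical axis) of each of the 7 genes on the 22 arrays, by dsRNA target (horizontal axis), with 1 point per array, a bar at each group mean and a dotted line at the floor. The red Rrp6 points lie near the grey GFP points for CG3117, CG4793, CG43336 and CG33462, below them for CG40160, and above them for CG18557 and CG11313.

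Most of the 7 genes were thus many times higher over the depletions as a whole. The median of the 7 mean differences was 3.86 on the log2 scale, against -0.03 over all tested probe sets, and 6 of the 7 were at least 2-fold above GFP, which held for 5.64% of all tested probe sets. Since the genes were chosen for such movement, nothing is read from these counts. Among all tested probe sets ranked by this difference, 2 of the genes, CG18557 and CG33462, were in the top 10 and 5 in the top 100. CG11313 ranked 147 and CG40160 ranked 1300.

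By depletion, 53 of the 63 pairs of a gene and a depletion were at least 2-fold above GFP. All 7 genes passed that size in Csl4 (6.55% of all tested probe sets did), Mtr3 (8.24%) and Ski6 (9.33%). It was 6 of 7, all but CG40160, in Rrp4 (7.57%), Rrp40 (8.51%), Rrp46 (8.49%) and Dis3 (6.87%), and all but CG11313 in Rrp47 (6.97%). In Rrp6 it was 2 of 7, CG18557 at 2.49 ± 0.27 and CG11313 at 2.74 ± 0.66, beside 4.41% of all tested probe sets. The other 5 differed from GFP in Rrp6 by -1.64 (CG40160) to 0.30 (CG4793). These comparisons share the same 2 GFP arrays, so the counts are not independent of each other.

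**Figure D2:**
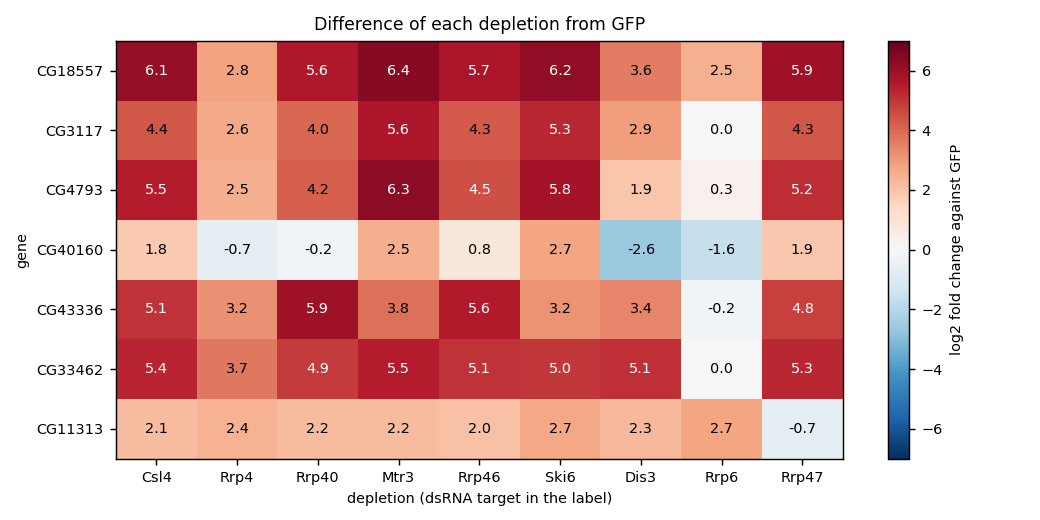
Log2 difference from GFP (colour and printed value) of each gene (rows) in each depletion (columns). The Rrp6 column is pale for 4 genes, at -0.2 to 0.3, and the CG40160 row turns blue in Dis3, at -2.6, and in Rrp6, at -1.6.

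Because the depletions differ among themselves without reference to GFP, they were also compared directly. The range from the lowest to the highest of the 9 depletion means was 3.44 for CG11313, 3.88 for CG18557, 5.33 for CG40160, 5.48 for CG33462, 5.62 for CG3117, 5.99 for CG4793 and 6.15 for CG43336, all on the log2 scale. The median over all tested probe sets was 1.00. The lowest depletion was Rrp6 for 5 genes, Dis3 for CG40160 and Rrp47 for CG11313. The highest was Mtr3 for CG18557, CG3117, CG4793 and CG33462, Ski6 for CG40160 and Rrp40 for CG43336. For CG11313 it was Rrp6 after quantile normalization, but not with values as deposited or with median centring. Without the Rrp6 arrays the median of the 7 ranges fell from 5.48 to 3.44.

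Rrp6 and Rrp47, which work as partners, differed for all 7 genes. Rrp47 exceeded Rrp6 by 5.28 ± 0.38 for CG33462, 4.99 ± 0.76 for CG43336, 4.86 ± 0.74 for CG4793, 4.29 ± 0.38 for CG3117, 3.50 ± 0.64 for CG40160 and 3.45 ± 0.27 for CG18557 on the log2 scale. CG11313 went the other way, at -3.44 ± 0.66. For each of the 7 genes the 2 arrays of one group did not overlap with those of the other, which held for 54.6% of all tested probe sets, and 6 of the 7 were at least 2-fold higher in Rrp47, against 7.31%. The Rrp6 arrays differed from each other by more than 1 on the log2 scale for every gene except CG11313. Without the first or the second Rrp6 array, the difference was 3.26 or 6.46 for CG4793, 4.69 or 2.31 for CG40160, 6.31 or 3.67 for CG43336 and 6.21 or 4.34 for CG33462. It was 2.88 or 4.01 for CG18557, 4.82 or 3.76 for CG3117 and -3.09 or -3.80 for CG11313, so each gene kept its direction. The difference was smaller still for CG4793 with the mean of all probe sets, at 1.75. For CG3117 it was 3.44 with a floor at the 25th percentile.

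The 6 ring and cap groups (core) were also compared with Dis3. Core exceeded Dis3 by 3.77 ± 0.49 for CG40160, 2.88 ± 0.56 for CG4793, 1.86 ± 0.20 for CG18557 and 1.42 ± 0.29 for CG3117, the 4 clip-domain homologues. It exceeded Dis3 by 1.03 ± 0.57 for CG43336, so that 5 of the 7 were at least 2-fold higher in core, against 4.91% of all tested probe sets. The difference was 0.00 ± 0.50 for CG11313 and -0.19 ± 0.29 for CG33462, each less than its standard error, and with values as deposited they were 0.92 and 0.64. Against the mean of Rrp6 and Rrp47, core was higher for all 7 genes, by 1.07 (CG40160) to 2.25 (CG33462), and a difference of at least 2-fold was seen in 4.45% of all tested probe sets. For 6 of them Rrp47 was itself high, and for CG11313 it was the low one of the pair.

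The level of an 18S ribosomal RNA control moved with some of the groups and not with others. It was 13.54 to 13.59 on the log2 scale in Ski6 and 12.04 to 13.66 in Mtr3, where the clip-domain homologues were highest. It was as high in Dis3, at 13.59 to 13.66, and in Rrp6, at 13.17 to 13.53, where these homologues were lower than in Ski6 and Mtr3. GFP stood at 7.97 to 9.90 and Rrp4 at 6.69 to 8.61. The control was at 10.10 to 12.35 in Csl4, 10.17 to 10.85 in Rrp47, 9.30 to 9.74 in Rrp46 and 7.13 to 8.27 in Rrp40. Its part in the order of the groups was not tested.

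The genes also differed in how alike their profiles were. Over the 9 depletion means, Pearson correlations among CG18557, CG3117, CG4793 and CG40160 were 0.80 to 0.96. Over the 6 genes without CG11313 they were 0.40 to 0.96, and CG11313 correlated with the other 6 at -0.37 to -0.24. These points share arrays and normalization, and the values are a description. Of the 7215 other tested genes, those whose 10 group means followed the mean profile of the 7 most closely were Cep164 (r = 0.993), the neprilysin-like gene Nepl21 (0.987), the AMP deaminase gene AMPdeam (0.985), CG10512 (0.984) and the scaffold protein gene Prosap (0.983). The mean difference of these 5 genes from GFP over the depletions was 1.30 (Cep164) to 2.58 (Nepl21) on the log2 scale.

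**Figure D3:**
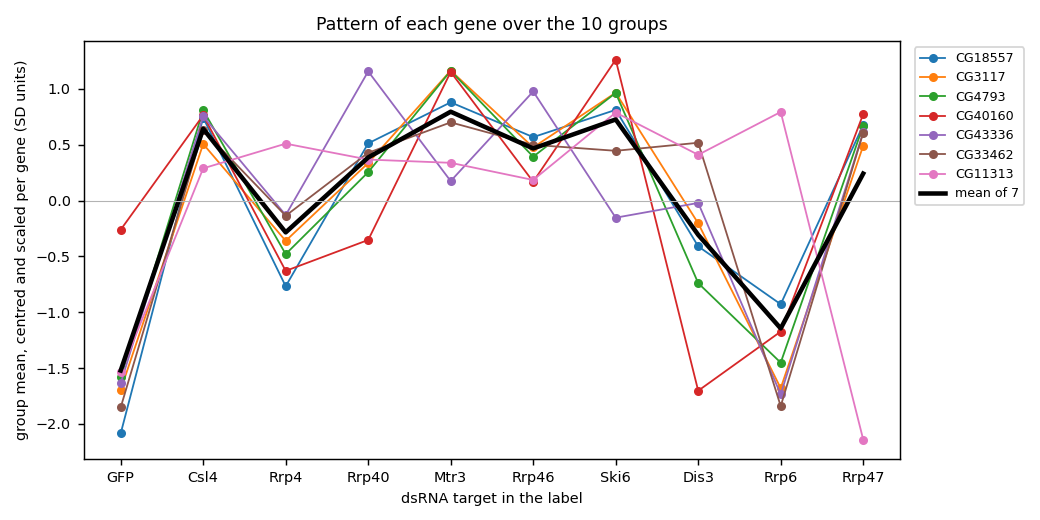
Group means of each gene, centred on its mean over the 10 groups and divided by its SD (vertical axis), by dsRNA target (horizontal axis), with the mean of the 7 genes in black. CG11313 lies at its lowest in Rrp47, where the other 6 are above their mean. In Rrp6, where the other 6 are below their mean, CG11313 is above its own, about level with Ski6.

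Position on the chromosomes set a few of the genes side by side. In the RefSeq annotation (assembly Release 6 plus ISO1 MT), CG18557, CG3117 and CG4793 lie on arm 2L, CG40160 on 3L, CG43336 and CG11313 on 3R and CG33462 on 2R. CG18557 and CG3117 are direct neighbours, and their profiles correlated at 0.91 over the 9 depletion means. CG4793, which does not lie beside them, correlated at 0.96 with each of them. The tested genes closest to CG18557 and CG3117 did not pass the test over all depletions: CG2975 differed from GFP by -0.02 ± 0.23, with an adjusted p of 0.96, CG2983 by -0.06 ± 0.47 (0.95) and RpS21, a ribosomal protein gene, by -0.02 ± 0.06 (0.86), all by limma with Benjamini-Hochberg adjustment. Near other members 2 tested genes did pass. AOX3, 3 places from CG43336, was at 1.45 ± 0.29 (adjusted p = 0.0013, limma). The gene l(3)80Fg, 3 places from CG40160, was at -0.89 ± 0.19 (0.0021). The other tested genes within 4 places of a member, apart from members, did not pass.

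CG33462 lies in a run of related genes, with 5 genes between it and Erasp, another serine protease gene that was not among those chosen. Erasp stood at 2.49 and 1.81 on the GFP arrays, at 4.70 to 5.68 in Rrp4, at 3.22 and 5.50 in Rrp6 and at 6.48 to 8.09 in the other 7 depletions. All 20 depletion arrays lay above both GFP arrays, which held for 2.79% of all tested probe sets. Erasp was near the floor in GFP and passed the filter on low signal through the depletions, so nothing is read from this count. The profiles of Erasp and CG33462 correlated at 0.89 over the 9 depletion means, which share arrays. CG33462 correlated at 0.90 with CG3117, which lies on another arm. Of the other relatives in the run, CG30088 and CG30087 were too dim to be tested.

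Most other serine protease genes had too little signal to be tested. A list of 81 other serine protease genes was used, of which 70 were on the array and 18 had enough signal to be tested. Over all depletions against GFP, 4 of the 18 were higher, against 11.6% of all tested probe sets, 2 were lower, against 10.3%, and 12 did not pass. With no filter on low signal, 6 of 70 were higher, against 5.15% of all probe sets, and 1 was lower, against 4.59%. The median of the 18 was 0.03 on the log2 scale, against -0.03 over all tested probe sets. Of the 10 tested genes of clip-domain, immune or developmental proteases and close relatives, 4 were higher and 1 lower. Of the 8 tested digestive genes 1 was lower and 7 did not pass.

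The 4 higher genes belonged to the first of these lists. Erasp was 4.53 ± 0.40 above GFP (adjusted p = 3.2e-07), and CG43110, a gene of the same family, 3.06 ± 0.50 (0.00023), with 19 of 20 depletion arrays above both GFP arrays. Both were near the floor in GFP, at mean levels of 2.15 and 2.10, and passed the filter on low signal through the depletions in which they were high, so their calls had to be in this direction. With no filter their adjusted p was 1.7e-06 and 0.00078 (limma). CG10232, a relative of clip-domain proteases, was 2.40 ± 0.15 above GFP (4.4e-09). The gene grass, which encodes a clip-domain protease upstream of Toll, was 1.10 ± 0.16 above GFP (8.5e-05). For both CG10232 and grass, 18 of 20 arrays lay above both GFP arrays. The share of all tested probe sets with 18 or 19 such arrays was not computed.

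The lower genes were Sp7 and Jon74E. Sp7, a clip-domain protease of the melanization pathway, was lower by -0.84 ± 0.16 (adjusted p = 0.00091, limma), in 19 of 20 depletion arrays. Jon74E, a digestive protease, was lower by -0.96 ± 0.30 (0.028), in all 20. The share of all tested probe sets with as many arrays below both GFP arrays was not computed. The calls of Sp7 and Jon74E depended on the scaling: with values as deposited Sp7 was at -0.31 (adjusted p = 0.095) and Jon74E at -0.38 (0.33). The split of calls was then 7 higher to 0 lower. At that scaling 4290 of the 9385 tested probe sets were called in either direction, and the median of all of them was 0.46. Nothing is therefore read from that split. Jon74E also lost its call at about the same size without the first GFP array (-1.05, adjusted p = 0.13), without the second (-0.86, 0.19), with median centring (-0.82, 0.056) and with no filter on low signal (-0.96, 0.067).

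**Figure D4:**
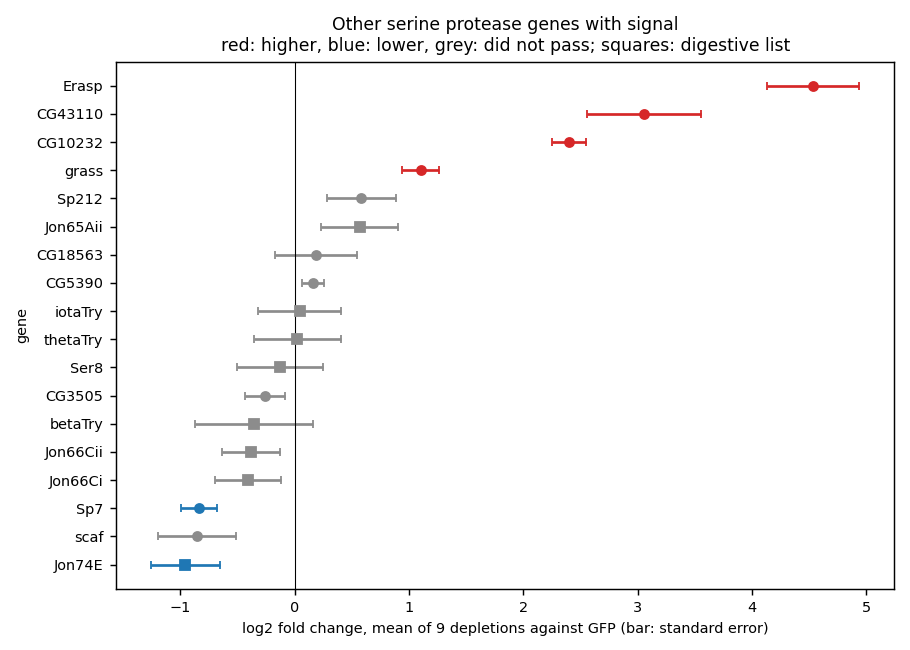
Log2 difference of the mean of the 9 depletions from GFP (horizontal axis, bars are standard errors) for the 18 other serine protease genes with signal (vertical axis), with squares for digestive genes. Erasp, at 4.53, CG43110, CG10232 and grass passed the test as higher in red, Sp7 and Jon74E as lower in blue, and the 12 genes in grey did not pass.

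The contrast of Rrp47 with Rrp6, in which the 7 genes differed widely, was then tested in the other serine protease genes, a comparison chosen after the values of the 7 had been seen. Of the 18 tested genes 5 were higher in Rrp47 and 13 did not pass, against 10.3% of all tested probe sets higher and 9.09% lower. CG10232 stood at 7.99 and 8.18 in Rrp6 and at 10.92 and 10.92 in Rrp47, a difference of 2.84 ± 0.20 (adjusted p = 5.3e-08, limma). The gene grass stood at 7.64 and 8.06 in Rrp6 and at 10.18 and 10.28 in Rrp47, a difference of 2.37 ± 0.22 (8.6e-07).

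Against GFP, CG10232 and grass did not pass the test in Rrp6, at -0.33 ± 0.20 and -0.32 ± 0.22. Erasp was higher in Rrp47 than in Rrp6 by 3.18 ± 0.54 (adjusted p = 5e-04, limma), with Rrp6 arrays at 3.22 and 5.50. Sp212, a serine protease gene, was higher by 1.64 ± 0.40 (0.0084) and CG5390, a clip-domain homologue, by 0.44 ± 0.13 (0.021). The last 2 calls did not hold without the first Rrp6 array, where the adjusted p was 0.13 for Sp212 and 0.21 for CG5390. Sp212 also lost its call without the second Rrp47 array (0.058), and CG5390 without the first (0.062) or the second (0.14), where the count fell from 5 to 3.

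Markers of S2 and other cell types gave the setting of these values. Of 11 hemocyte markers 9 were tested. Over all depletions 3 were higher, Pxn by 2.97, eater by 1.74 and He by 0.91, against 11.6% of all tested probe sets. Lower were 2, Hml at -1.57 and crq at -0.58, against 10.3%. Pxn (3.29) and He (4.22) lay under the filter on low signal in GFP, so their calls had to be higher. The summed level of the 11 on the log2 scale was 14.62 to 15.04 on the GFP arrays and 13.91 to 15.15 on the depletion arrays. The 3 crystal cell markers, of a blood cell that carries melanization enzymes, summed to 5.33 to 5.71 on the GFP arrays and 6.37 to 9.15 on the depletion arrays. PPO1 was higher by 4.29 and PPO2 did not pass, while lz, the defining regulator of that cell, was too dim to be tested. PPO1 stood at 2.93 in GFP and passed the filter on low signal only through the depletions, so its call had to be in this direction. The 5 tested markers of fat body, gut, neuron and muscle did not pass, at -0.87 for brp to 0.36 for elav, both neuronal. In bulk RNA, a change in the share of a cell type and a change in RNA per cell cannot be told apart, and the part of either in the values of the 7 genes was not tested.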

How the data were processed

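The deposited values, made by the authors with GCOS per the submitters' processing notes (version not given in the sources used here), are probe set intensities on a linear scale. From the 22 arrays, 183 control probe sets were left out, the remaining intensities were quantile normalized, floored at their 10th percentile (a signal of 3.23) and taken as log2. Probe sets with a mean log2 signal of at least 4.67 (the median) were tested, 9385 in all, with 12 residual degrees of freedom for 10 group means. The fit used limma 3.58.1 (lmFit, eBayes with intensity trend) in R 4.3.3, with Benjamini-Hochberg adjustment over all tested probe sets, a threshold of 0.05 and two-sided tests, and was tested on simulated data. Errors written ± are standard errors of that fit. For arrays, their number limits the precision.

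Platform symbols were updated through gene identifiers, and 13647 probe sets carried 1 symbol, 402 several. The brightest probe set stood for a gene. RefSeq supplied names and gene order only, since the files name no genome build. The named genes were the 7 genes, the 5 highest and 5 lowest called genes of the protease list (fewer passed), the 5 genes with the most similar profile and family neighbours. The planned searches of protein and promoter sequences were not run, and a list of symbols replaced the protein search. The 7 genes, the lists and the comparisons were chosen with earlier results of these data known.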

Additional observations from a re-analysis of the deposited data

Results flagged for a closer look

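CG40160 moved in opposite directions in different depletions. Both Dis3 arrays lay below both GFP arrays, with a mean log2 difference of -2.59, and so did both Rrp6 arrays, at -1.64, whereas all arrays of Csl4, Mtr3, Rrp46, Ski6 and Rrp47 lay above both GFP arrays, with mean differences of 0.77 to 2.74. The difference between these groups was not tested, since the gene was chosen for its movement. Of all tested probe sets, 33.7% had all arrays of at least 1 depletion above and all of another below both GFP arrays. The Rrp6 arrays of CG40160 stood at 4.98 and 2.60, so that the size in Rrp6 rests on the second array.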

How the results depend on the processing

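The median difference of the 7 genes over all depletions, 3.86 on the log2 scale, was 4.19 with values as deposited, 3.36 with a floor at the 25th percentile, 4.37 without the Rrp6 arrays and 3.41 to 4.22 when 1 array was left out. Values as deposited moved the median of all tested probe sets by 0.49, to 0.46, and the median of the 7 genes lay 3.73 above it. The median range among the depletions, 5.48, was 6.33 with values as deposited, 5.08 with the higher floor, 5.33 with the mean of all probe sets, 4.83 without the second arrays of Csl4, Dis3 and Rrp6, 3.44 without the Rrp6 arrays and 4.83 to 5.65 when 1 array was left out. The 53 pairs at least 2-fold above GFP ranged from 47 to 54, the lowest without the 4 Rrp4 arrays, where 56 pairs were counted. Replicate numbers did not pair the arrays across all groups: of 45 pairs of groups, 4 had correlations over 0.1 and 6 under -0.1. These correlations, of replicate 1 minus replicate 2, ran from -0.35 to 0.41. Whether some groups were handled together was not tested. With the replicate number as a block the median was 3.87, and 53 pairs and 6 protease calls were counted. The 6 calls among other serine protease genes were 16 of 65 with a broader list of numbered protease names. Of these 16, 10 were higher, against 11.6% of all tested probe sets, and 6 lower, against 10.3%. Among the 10 higher, Erasp, CG43110, CG7142 (1.78 in GFP) and CG10764 (2.65) passed the filter through the depletions in which they were high. Their calls had to be in this direction, and this list was not counted without the filter. The median over the 65 was -0.13 on the log2 scale. The 5 calls of Rrp47 against Rrp6, all higher in Rrp47, were 8 of 70 with no filter, 6 higher and 2 lower. The share of all probe sets called with no filter was not computed for this contrast, so nothing is read from that count. With numbered names the calls of Rrp47 against Rrp6 were 10 of 65, 9 higher, against 10.3% of all tested probe sets, and 1 lower, against 9.09%. The calls were 3 to 5 when 1 array was left out, with 3 higher and 1 lower without the first Rrp6 array. The number of calls over all tested probe sets was 2057, against 4290 with values as deposited. Leaving out the filter, or an array of a group outside a comparison, cannot change that comparison, so many recomputed values were fixed in advance. With these counted, of 3031 recomputed values for single genes among the 7, 2821 moved by less than the spread between arrays, and 210 by more. In 13 of these, over 8 values that were all within 0.71 of 0, the sign turned: in CG40160 for Rrp4 (-0.66 to 0.87) and CG33462 for core against Dis3 (-0.19 to 0.64) with values as deposited, in CG11313 for Rrp47 (-0.71 to 0.70) without the second GFP array, in CG40160 for Rrp40 (-0.16 to 0.90) without the first Rrp40 array, and in CG3117, CG4793, CG43336 and CG33462 for Rrp6 without 1 GFP or Rrp6 array. The alternatives with numbered names and without Rrp6, and those for Rrp47 against Rrp6, were chosen after seeing the data. The causes were not tested.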
